A study of Mus musculus with 6 samples.

Results

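In mouse macrophages, 538 genomic sites carried a peak of the coactivator p300 both before and after lipopolysaccharide (LPS), with no peak of the transcription factor PU.1 in either state. To find them, the authors' 2 p300 peak lists were merged into 19879 sites on chromosomes 1 to 19 and X. The 4619 sites that overlapped a p300 peak in both lists, here called constitutive, were kept, and 4081 of them were set aside because they overlapped a PU.1 peak of either list by at least 1 bp. The remaining 538 members made up 11.6% of the constitutive sites (exact 95% binomial interval 10.7 to 12.6, which covers counting error only). The members were chosen by measured values, namely the p300 and PU.1 peaks of these libraries. Their p300 and PU.1 values are therefore a description. Calls from a fit over all p300 sites are listed for the members beside the share called over all sites, and nothing is read from them. H3K4me1 is the readout that the choice did not use.

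The macrophages were grown from bone marrow of female Fvb mice to day 7 of differentiation, in medium conditioned by L929 cells, and the labels name no genetic change. Chromatin immunoprecipitation with sequencing (ChIP-seq) measured p300 in untreated cells and after 2 h of LPS at 10 ng/ml, with 2 biological replicates each. PU.1 was measured once in each of these conditions. Histone H3 mono-methylated at lysine 4 (H3K4me1) and input DNA, chromatin sequenced without an antibody, were measured once each, in untreated cells. The assay reads binding and not expression, so the labelled cell type was not checked against marker genes.

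p300 is a histone acetyltransferase that does not bind a DNA motif of its own and is brought to enhancers and promoters by transcription factors. PU.1 is an ETS family factor that macrophages need to form, and it marks out much of their enhancer repertoire together with H3K4me1, a histone mark of enhancers that is typically depleted at active transcription start sites. LPS is a bacterial glycolipid that macrophages sense through Toll-like receptor 4 and that induces inflammatory genes.

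The 8 libraries held 5744811 to 7828655 aligned reads of 36 bp, and the counts below use 1 read per position and strand. The p300 replicates differed in enrichment. Summed over the 4081 constitutive sites with PU.1, and per library size, p300 reads were 1.24 and 6.78 times input in untreated replicates 1 and 2 and 2.14 and 5.60 times input in LPS replicates 1 and 2. The share of reads removed as duplicates also differed by replicate number. It was 3.02% and 4.03% in the untreated and LPS libraries of replicate 1 and 22.0% and 25.8% in those of replicate 2. In the input library it was 17.3%. Sites are named by mm9 coordinates, as the files give them. No genome or annotation of that build was used here, so no gene is assigned to a site.

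Members were somewhat narrower and weaker than the constitutive sites with PU.1. Their median width was 701 bp, against 808 bp. The median of the lower of a site's 2 p300 scores, each 10 times the -log10 p of the authors' peak caller, was 71.8, against 89.0. The median member held 7 and 26 p300 reads untreated (replicates 1 and 2, in this order throughout) and 10 and 24 after LPS, where the constitutive sites with PU.1 held 8, 40, 12 and 32. Members became scarcer as the lower score rose. They were 17.8% of the 1155 lowest-scoring constitutive sites (scores 50.0 to 62.9) and 7.79% of the 1155 highest-scoring ones (scores 149.5 to 3072). The members with the lowest scores lay next to the bound of the lists, which stop at a score of 50. At chr2:143956111-143956525 the scores were 50.1 and 51.0, with 5 and 5 p300 reads untreated and 4 and 7 after LPS. Another such site, chr14:54841742-54842400, scored 50.2 untreated and 109.0 after LPS, with 6 and 13 p300 reads untreated and 6 and 21 after LPS.

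The lack of a PU.1 peak did not mean a lack of PU.1 reads. The median member held 14 PU.1 reads untreated and 16 after LPS, against 83 and 87 at constitutive sites with PU.1. As a log2 ratio to input, scaled for depth and with 1 read added to each, PU.1 was at 1.54 untreated and 1.58 after LPS in the median member, against 3.51 and 3.57. PU.1 was more than 2-fold over input in both PU.1 libraries at 302 members (56.1%), and at or below input in both at 52 (9.67%). No PU.1 read lay in either library at 22 members (4.09%).

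PU.1 peaks were usually near. The gap from a member to the nearest PU.1 peak had a median of 1230.5 bp, and 30 members lay within 100 bp, 240 within 1 kb and 436 within 5 kb of such a peak. Within 50 kb, 522 of 538 members had 1. These gaps were not set against those of other p300 sites, so nearness is not shown to be particular to the members. Another p300 site lay within 5 kb of 275 members, and a constitutive p300 site with PU.1 within 10 kb of 174.

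**Figure D1:**
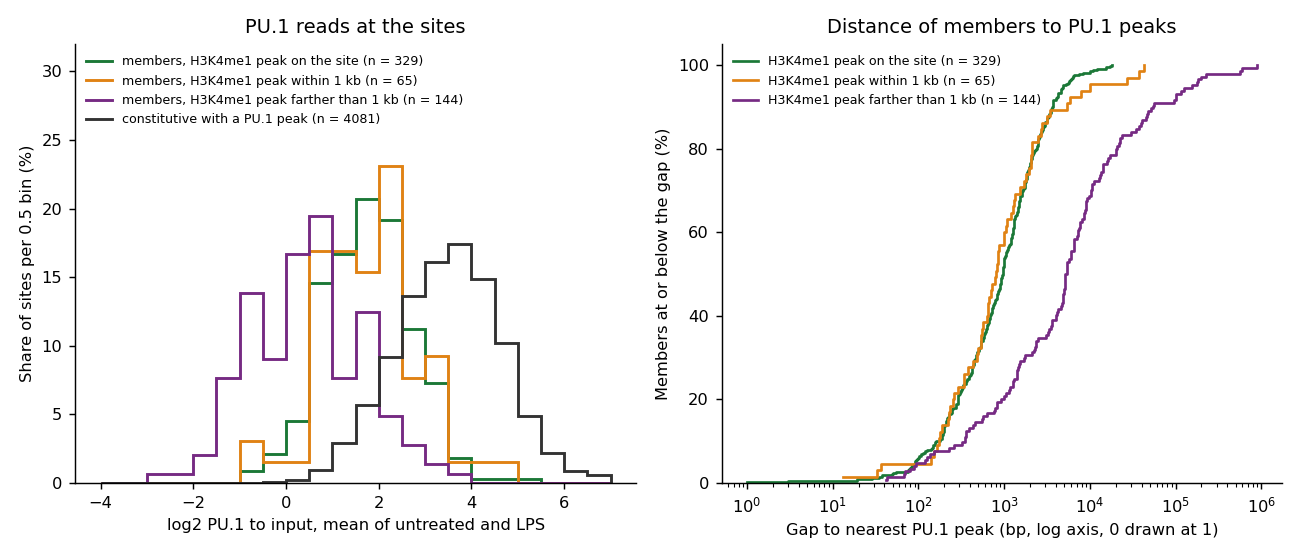
Left, the share of sites (y axis, %) in each bin of 0.5 of the log2 ratio of PU.1 to input reads (x axis, mean of the untreated and LPS ratios) for members split by the position of the nearest H3K4me1 peak and for constitutive sites with a PU.1 peak. Right, the share of members (y axis, %) at or below each gap to the nearest PU.1 peak (x axis, bp, log scale); the 144 members far from H3K4me1 sit to the left in PU.1 ratio and to the right in gap.

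The site with the most PU.1 reads per kb among members was chr17:33700113-33701001, with 104 reads untreated and 112 after LPS, and a PU.1 peak lay 372 bp away. It held 15 and 44 p300 reads untreated and 18 and 29 after LPS. At chr13:118011980-118012587, PU.1 reads numbered 65 and 77. Just outside the rule stood chr9:116084002-116084880, which was set aside for an untreated PU.1 peak of score 50.4 and held 32 PU.1 reads untreated and 20 after LPS. The next, chr7:135697998-135698640, had an untreated PU.1 peak of score 50.6, with 34 and 18 reads. Sites inside the rule could thus hold more PU.1 reads than sites outside it. The choice favours this, since the first were picked for most PU.1 reads per kb and the others for the lowest PU.1 score.

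H3K4me1 split the members into 3 classes. An H3K4me1 peak overlapped 329 members (61.2%, exact 95% interval 56.9 to 65.3), against 3393 of the 4081 constitutive sites with PU.1 (83.1%, 82.0 to 84.3) and 48.0% of all p300 sites. A further 65 members (12.1%) had no such peak on them but 1 within 1 kb. The remaining 144 (26.8%, 23.1 to 30.7) lay farther than 1 kb from H3K4me1, where 287 of the constitutive sites with PU.1 did (7.03%). Within 1 kb of the site centre, H3K4me1 reads were more than 2-fold over input at 360 members (66.9%), against 54.6% of all 19879 p300 sites. These intervals rest on 1 H3K4me1 and 1 input library and treat sites as independent, which neighbours may not be.

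The 329 members with an H3K4me1 peak had H3K4me1 levels close to those of the 3393 constitutive sites with both PU.1 and H3K4me1. Their median log2 ratio of H3K4me1 to input was 2.55, against 2.54. Both groups were chosen by a peak of the same H3K4me1 library, which favours similar levels. The H3K4me1 density was level, with 6.35 reads per site per 100 bp and 10000000 reads within 250 bp of the centre and 6.28 at 500 to 1500 bp, where the sites with PU.1 had 5.72 and 6.57, a dip at the centre. PU.1 density at their centre was 6.67 in untreated cells, above the 4.40 on the flanks, while the sites with PU.1 reached 30.6 over flanks of 2.63. Within 5 kb of a PU.1 peak lay 313 of the 329 members.

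The 65 members beside an H3K4me1 peak had, as their definition favours, more H3K4me1 around them than on them. The mark fell from 2.97 on the flanks to 1.23 at the centre, close to the 1.14 of input there, and stood at 2.61 farther than 3 kb away. Their PU.1 values were like those of the first class, with medians of 1.79 untreated and 1.71 after LPS on the log2 scale, against 1.77 and 1.81.

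The 144 members far from H3K4me1 were mixed in PU.1, with a median near input and a part well above it. Their median log2 ratio to input was 0.03 untreated and 0.58 after LPS for PU.1, and -0.58 for H3K4me1, whose low value the definition of the class requires. Without the 8 members of a run on chromosome 11, described below, PU.1 was at 0.03 and 0.95, and with a median of 2 PU.1 reads in each library these ratios move in steps. Of the 22 members with no PU.1 read at all, 21 were in this class, as were 46 of the 52 at or below input. PU.1 was more than 2-fold over input at 51 of the 144 untreated, at 50 after LPS and at 35 in both. Summed over the 136 outside the run, PU.1 reads were 2.80 and 2.92 times input. They were 3.41 and 3.44 times input at the 59 of them within 5 kb of a PU.1 peak, and 1.10 and 1.47 times at the 77 farther away. PU.1 density over the 136 was little higher at the centre than on the flanks, at 1.813 against 1.555 untreated and 1.876 against 1.553 after LPS. For the 144, the nearest PU.1 peak was a median of 5259.5 bp away, against 957 bp for members with an H3K4me1 peak. Their sites were also narrower (545 bp) and held fewer p300 reads over the 4 libraries (37, against 81), and 73 of them were among the 1155 lowest-scoring constitutive sites while 11 were among the highest-scoring. Input itself was lower, at a median of 2.70 reads per kb, against 6.72.

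Several members showed the range of H3K4me1. At chr1:172907128-172907725, 161 H3K4me1 reads lay within 1 kb of the centre against 2 input reads, the highest ratio among members (log2 5.74). This site held 7 and 40 p300 reads untreated, 12 and 23 after LPS, and 17 and 16 PU.1 reads, with a PU.1 peak 395 bp away. Next came chr5:114322877-114323576, with 207 H3K4me1 reads against 9 of input. In both, p300 replicate 1 was below replicate 2 in each condition.

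The lowest ratio stood at chr2:75541400-75542330, with 0 H3K4me1 reads against 20 of input (log2 -4.39 with 1 read added). Its p300 reads were 8 and 45 untreated and 15 and 28 after LPS, and a PU.1 peak lay 138 bp away. On chromosome X, chrX:163646299-163647695 had 1 H3K4me1 read against 17 of input, 56 and 46 PU.1 reads and a PU.1 peak 260 bp away. By contrast, chr14:104735849-104736394 had neither mark nor factor nearby. It held 9 and 9 p300 reads untreated and 16 and 15 after LPS, 1 and 0 PU.1 reads, no H3K4me1 read against 6 of input, and the nearest PU.1 peak was 37216 bp away.

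In all, 21 members with at least 10 input reads in the window had an H3K4me1 level under 0.5 of input per library size. These were wide sites (median 1266 bp), 10 of them within 1 kb of a PU.1 peak. Their H3K4me1 rose from 0.82 at the centre to 2.23 farther than 3 kb away, while input fell from 2.44 to 1.43. Choosing sites by low H3K4me1 and by input reads in the window favours both of these gradients. The 2 lowest sites just described, on chromosomes 2 and X, are among them. So is chr11:3076249-3078493, with 99 input reads in the window, from the run on chromosome 11 described below. The run was not left out of these values. Of the 4081 constitutive sites with PU.1, 97 met the same bound.

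The balance between p300 replicates also differed by class. Per library size, the median ratio of replicate 1 to replicate 2 was 0.204 untreated (0.193 to 0.222, the 95% interval of the median over sites, which does not cover replicates) and 0.402 after LPS (0.372 to 0.419) at members with an H3K4me1 peak, and 0.204 and 0.390 at those beside one. Constitutive sites with PU.1 gave 0.185 and 0.393, and all 19879 p300 sites gave 0.365 and 0.511. At the 144 members far from H3K4me1 the ratios were 0.505 (0.420 to 0.626) and 0.629 (0.539 to 0.726), or 0.447 and 0.598 without the 8 members of the run on chromosome 11. Reads were more numerous in replicate 1 than in replicate 2 in both conditions at 17 of these 144, at 1 of the 329 with an H3K4me1 peak, at 1 of the 65 beside one, at 8 of 4081 constitutive sites with PU.1 and at 963 of all 19879 p300 sites (4.84%). Among sites with at least 40 p300 reads, the ratios over all p300 sites were 0.218 and 0.415.

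Read number moved with this difference. Among members with under 40 p300 reads the ratios were 0.574 and 0.685 far from H3K4me1 (77 sites) and 0.299 and 0.532 with an H3K4me1 peak (26 sites). Among those with at least 40 reads they were 0.389 and 0.572 far from H3K4me1 (67 sites, or 0.335 and 0.539 for the 59 outside the run) and 0.197 and 0.397 with a peak (303 sites). Taken as a whole, the class far from H3K4me1 thus had the higher ratio at both levels of reads. The part of read number in the difference was not tested further. Distance to PU.1 moved with it too. Far from H3K4me1 and farther than 5 kb from PU.1, the 77 members outside the run had ratios of 0.634 and 0.718, while the 59 outside the run and within 5 kb of a PU.1 peak had 0.275 and 0.478. Among those with at least 40 p300 reads, the ratios were 0.6425 and 0.769 farther than 5 kb from PU.1 (22 sites). Within 5 kb of PU.1 they were 0.1965 and 0.397 (37 sites), close to those of members with an H3K4me1 peak. At constitutive sites with PU.1 that lay far from H3K4me1 the ratios were 0.200 and 0.425.

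**Figure D2:**
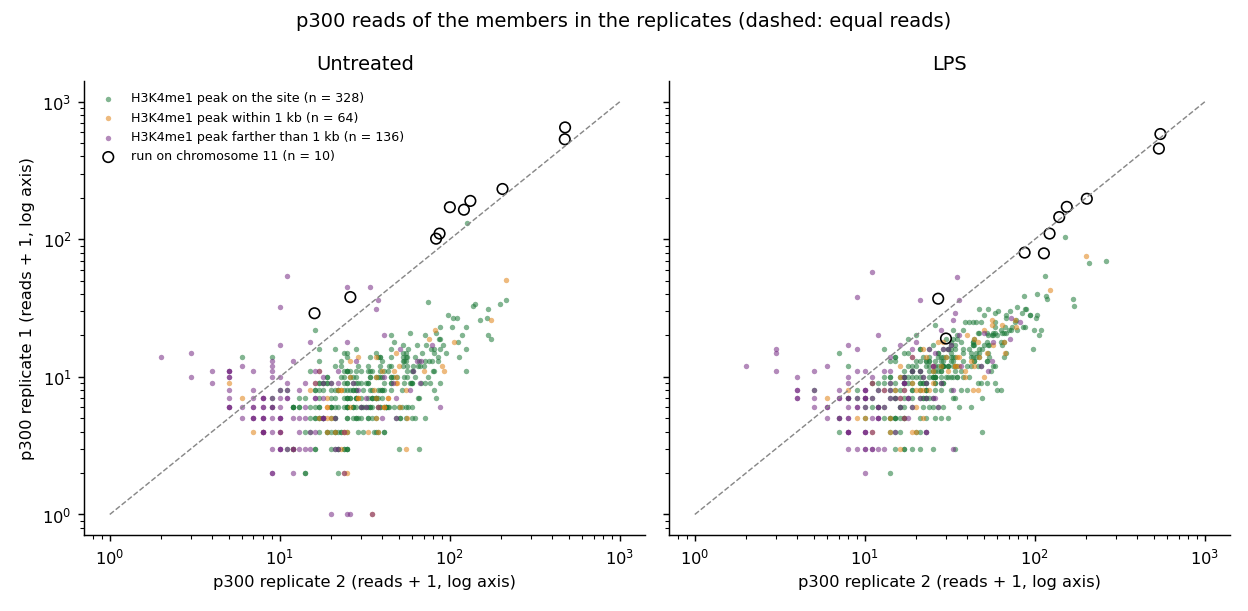
p300 reads (plus 1) of each member in replicate 1 (y axis) against replicate 2 (x axis), both on log scales, in untreated cells (left) and after LPS (right), with members coloured by the position of the nearest H3K4me1 peak and the run of 10 on chromosome 11 as open circles. Most members lie below the dashed line of equal reads; the run lies on or above it in untreated cells.

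Summed over the 77 members far from both H3K4me1 and PU.1 and outside the run, p300 reads were 6.19 and 8.96 times input in the untreated replicates and 8.77 and 10.1 times after LPS. PU.1 was 1.10 and 1.47 times input and H3K4me1 0.982 times input. Members with an H3K4me1 peak had p300 at 1.40, 6.22, 2.21 and 5.57 times input. The libraries of replicate 1, which were at 1.40 and 2.21 times input at sites with H3K4me1, were thus farther above input at these 77. The choice of sites by their p300 peaks favours high p300, and input at the 77 was low, with 91 reads in all and a median of 1.57 reads per kb. In the 4 p300 libraries, reads of the 2 strands were offset by 60.5, 51.5, 42.5 and 50 bp at the 77. At members with an H3K4me1 peak the offsets were longer, at 70, 100, 86 and 114 bp.

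Within this class, chr2:69032246-69032683, singled out after its values were seen, held 30 and 36 p300 reads untreated and 52 and 34 after LPS, with scores of 409.6 and 463.0. PU.1 had 0 and 1 reads there, H3K4me1 1 read and input 1 read. The nearest PU.1 and H3K4me1 peaks lay 11054 and 10315 bp away. This was the highest lower score among members far from H3K4me1.

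Some members lay in runs of at least 3 with gaps of at most 25 kb. The largest held 10 members over 67145 bp at chr11:3030275-3097420, with 2208 and 1709 p300 reads untreated and 1867 and 1947 after LPS, so that 2208 of the 6696 member reads of untreated replicate 1 came from it. Input was high there, at 988 reads and 7.25 to 45.9 reads per kb, where the median member had 5.96. p300 was 2.10, 1.77, 2.08 and 2.06 times input, PU.1 0.497 and 0.613 times and H3K4me1 0.711 times. The reads of the 2 strands were offset by -7, 33.5, 4 and 82 bp in the 4 p300 libraries, against 70, 100, 86 and 114 bp at members with an H3K4me1 peak. The 4 members with the most input per kb all lay in this run, led by chr11:3076249-3078493 with 103 input reads, 189 and 131 p300 reads untreated and 171 and 153 after LPS.

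The 3 smaller runs held 5 to 30 input reads, and 2 of them are described here, singled out after their values were seen. That on chromosome 4 lay at chr4:45054384-45075580 and together held 97 and 20 p300 reads untreated and 110 and 25 after LPS, with 1 and 3 PU.1 reads, 6 of H3K4me1 and 12 of input. Here replicate 1 exceeded replicate 2 in both conditions. At chr17:71857876-71875168, 3 members held 39 and 46 p300 reads untreated and 57 and 44 after LPS, no PU.1 read, 10 of H3K4me1 and 5 of input.

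The members with the highest lower score were strong, and in 3 of the 6 the nearest PU.1 peak was under 500 bp away. The first, chr14:75580226-75581319, scored 934.6 and 700.1 and held 25 and 174 p300 reads untreated and 42 and 122 after LPS. It also held 86 and 82 PU.1 reads, with a PU.1 peak 231 bp away, and lay 487 bp from an H3K4me1 peak. The next, chr11:33909371-33911213, had 30 and 167 p300 reads untreated and 66 and 207 after LPS, and 199 and 231 PU.1 reads with a PU.1 peak at 187 bp. After scaling, the LPS values of the first lay between its untreated ones, and those of the second lay above both (95.6 and 134.9 against 55.8 and 95.05 normalised reads, which are reads scaled to the geometric mean library size, log2 fold change 0.67 ± 0.59, SE, not called).

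At chr17:34255708-34259994, a site of 4286 bp, 50 and 213 p300 reads untreated and 74 and 198 after LPS stood beside 110 and 92 PU.1 reads and a PU.1 peak at 436 bp. H3K4me1 had 4 reads against 13 of input within 1 kb of its centre. The site chr15:76033936-76036065 held 32 and 135 p300 reads untreated and 53 and 113 after LPS, 1514 bp from PU.1. The narrow site chr1:145853524-145854069 held 14 and 52, then 19 and 59, with 1 input read. The sixth, chr11:3041484-3047412, belongs to the run on chromosome 11 and held 213 input reads.

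**Figure D3:**
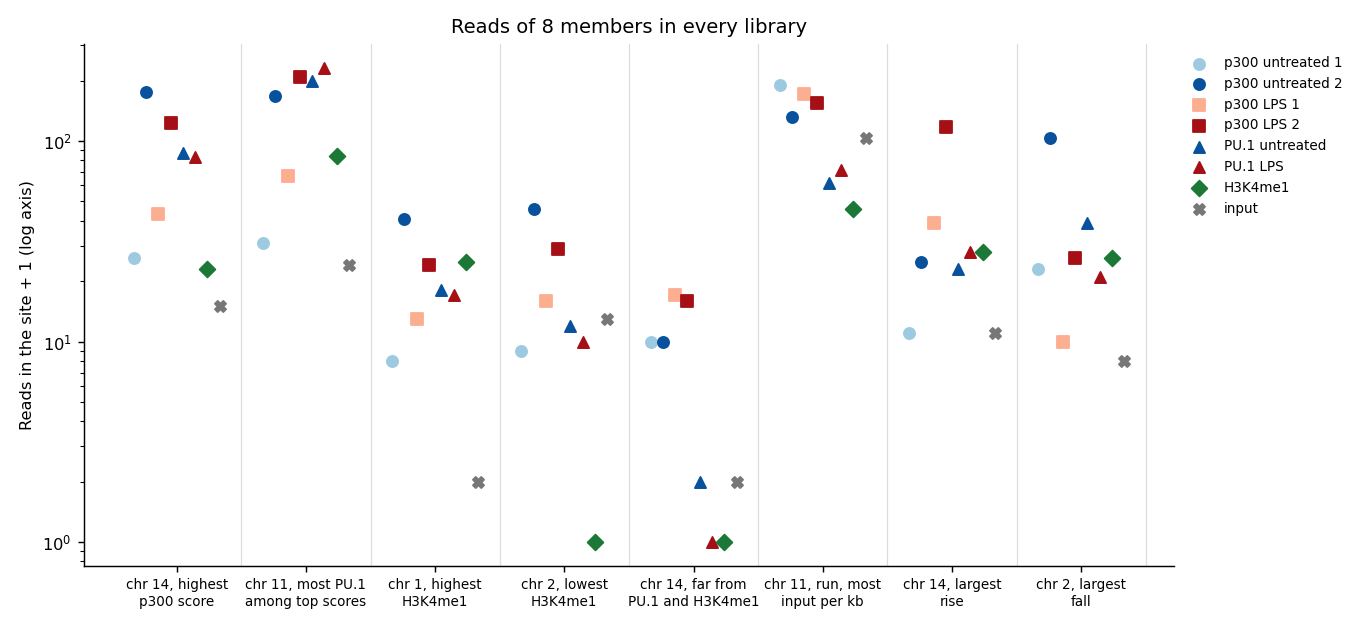
Reads plus 1 (y axis, log scale) in each of the 8 libraries for 8 members (x axis), 1 marker per library. The site far from PU.1 and H3K4me1 has 9 reads in each untreated p300 replicate, whereas the site with the highest p300 score has 25 and 174; the site of the chromosome 11 run has 103 input reads.

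p300 after LPS was set against untreated cells in a fit over all sites. All 538 passed the minimum of 10 reads over the 4 p300 libraries, and limma voom, fitted over 19727 p300 sites with Benjamini-Hochberg adjustment at 0.05, called 2 members higher (0.372%) and 0 lower. Over all sites tested it called 1.97% higher and 0.213% lower. Without adjustment, 13 members were higher and 2 lower at p under 0.05 in this fit, where 3481 of all 19727 sites passed in either direction. After adjustment, limma-trend likewise called 2 members higher and 0 lower, against 335 and 42 of all sites. With total reads or 10 kb background bins as library size, no site was called. Since a member needs a p300 peak in both lists, the rule used this contrast, and nothing is read from these counts or from those of replicates that do not overlap. Constitutive sites with PU.1, chosen in the same way, had 20 called higher and 1 lower of 4081.

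After scaling, the 2 LPS replicates lay above both untreated ones at 81 members (15.1%) and below both at 58 (10.8%), while 27% and 27.7% of all sites tested did so. The median log2 fold change of the members was 0.06, against -0.03 at constitutive sites with PU.1 and 0.00 over all sites. By class it was -0.0013 with an H3K4me1 peak, 0.14 beside one and 0.18 far from one. In the last class, LPS against untreated gave -0.12 within the libraries numbered 1 and 0.22 within those numbered 2, so the direction differed between them.

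The largest rise among members with at least 40 p300 reads was at chr14:45657410-45658193, a member with an H3K4me1 peak and a PU.1 peak 562 bp away. It held 10 and 24 p300 reads untreated and 38 and 116 after LPS, or 18.6 and 13.7 against 55.1 and 75.6 normalised reads. Both LPS replicates were above both untreated ones. On the log2 scale it rose by 2.00 ± 0.55 (SE), 1 of the 2 calls, and PU.1 had 22 and 27 reads. A single residual variance was shared by the whole table in this fit, and a site's own replicate spread does not enter its SE or its call. Without untreated replicate 2, LPS replicate 1 or LPS replicate 2 the site was not called, with log2 changes of 1.71, 2.25 and 1.76. Each of these fits leaves 1 condition with a single library, which is assumed to vary like the other condition, so they say little about the spread at this site.

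The second call, at chr4:45054384-45055028 in the run on chromosome 4, turned on untreated replicate 2. Its p300 reads were 13 and 1 untreated and 16 and 7 after LPS. Normalised, these were 24.2 and 0.569 against 23.2 and 4.56, so both LPS values lay between the untreated ones. Its fitted change was 2.43 ± 0.71 on the log2 scale (SE), but -1.52 without untreated replicate 2 and 0.69 by limma-trend, and neither of these called it.

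**Figure D4:**
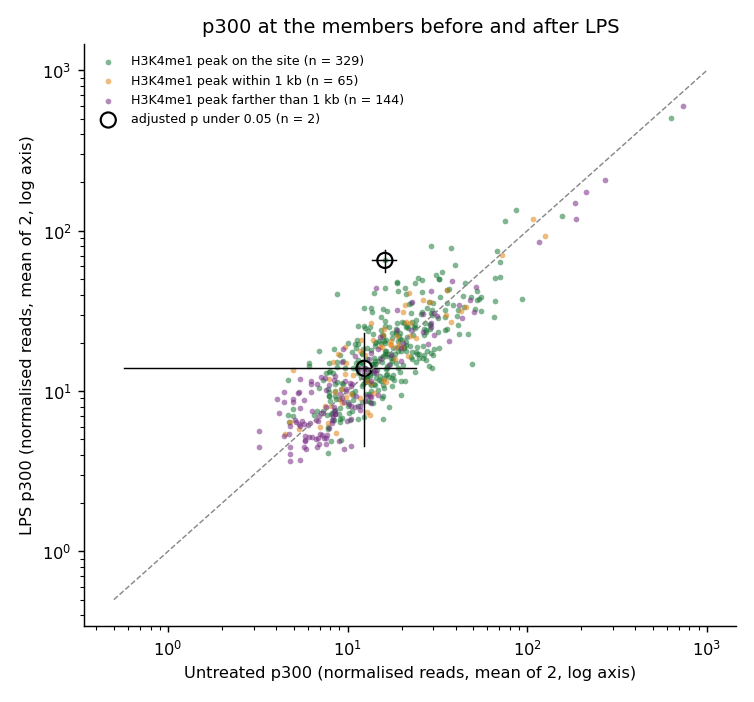
Normalised p300 reads after LPS (y axis, mean of 2 replicates) against untreated (x axis), both on log scales, for the 538 members by class, with the 2 called members circled and lines to their replicates. The chromosome 14 site stands above the dashed line of equality with replicates that do not overlap; the lines of the chromosome 4 site cross that line.

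The other named sites with higher p300 after LPS did not pass the threshold in the fit over all sites. An alternative fit with replicate number as a block, given below, called all 3. At chr19:11887234-11888063, p300 reads were 2 and 24 untreated and 21 and 77 after LPS (log2 fold change 1.79 ± 0.59, SE), and limma-trend did call this site. At chr1:155147189-155148286 they were 7 and 80, then 36 and 166 (1.53 ± 0.55). At chr11:83459960-83461017, far from H3K4me1 and 554 bp from a PU.1 peak, they were 7 and 28, then 24 and 81 (1.47 ± 0.54), and PU.1 had 17 reads untreated and 50 after LPS. At all 3, both LPS values lay above both untreated values after scaling. At the chromosome 1 site the gap was narrow, from 45.5 to 52.2 normalised reads.

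None of the 4 named sites with lower p300 passed in the fit over all sites either. The fit with the replicate block called chr2:164266317-164267357 and chr16:11001617-11002879. At chr2:164266317-164267357, p300 reads were 22 and 102 untreated and 9 and 25 after LPS (log2 fold change -1.65 ± 0.53, SE), and PU.1 had 38 and 20. At chr16:11001617-11002879, which had the highest untreated p300 score of any member (1492), they were 35 and 213, then 22 and 66 (-1.18 ± 0.55). At chr13:28511769-28512185 they were 7 and 22, then 7 and 7 (-1.12 ± 0.62), and at chr4:140981516-140982105 5 and 38, then 8 and 10 (-1.01 ± 0.58). Both LPS values lay below both untreated ones after scaling at the first 3. At the last, untreated replicate 1 lay between the LPS replicates after scaling.

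PU.1 reads were compared between the 2 PU.1 libraries without a replicate. Of 225 members with at least 40 PU.1 reads in all, 9 (4.00%) were more than 2-fold higher after LPS and 5 (2.22%) more than 2-fold lower, against 5.28% and 1.69% of the 9428 p300 sites with as many reads. The median log2 ratio of LPS to untreated PU.1 over all 538 members was 0.01. At chr11:83459960-83461017, the member named above for its p300 values, PU.1 was higher after LPS by 1.47 on this log2 scale.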

How the data were processed

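The deposited read files hold 1 aligned read per line with its position and strand, a unit of its own kind that is not a count table. The submitters' processing notes name build mm9. The p300 replicate numbers are those in the names of the read files. The aligner and its settings are not given in the sources used here. The deposited peak scores are 10 times the -log10 p of MACS, per the file headers and the deposited column description, and the p300 lists were called on reads of both replicates merged, per the series' design text. Both PU.1 lists name LPS in their headers and were used under their samples' labels. A swap of the lists would leave the members the same, since they lack a peak of either list. Which reads each list was called on was not checked. If both were called on LPS reads, the lack of an untreated PU.1 peak would rest on no untreated list. The H3K4me1 list names input as its control, and the p300 lists name naked DNA, per the file headers.

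From these files, reads of chromosomes 1 to 19 and X were kept once per position and strand, and each was placed 100 bp downstream of its 5′ end before sites were counted (Python 3.11.15, numpy 2.4.6, pandas 2.3.3). Ratios to input had 1 read added, and ratios between replicates 0.5. Median-of-ratios factors from 16554 sites set the p300 library sizes. LPS and untreated were compared with limma voom over 19727 sites, in a model of treatment alone (R 4.3.3 and limma 3.58.1), with Benjamini-Hochberg adjustment. Scaled sizes ranged from 0.538 to 1.757 of their geometric mean. Overlap and counting code were tested on simulated intervals and the fit on simulated reads. Alternatives were other library sizes, read shifts, duplicate handling, score bounds, added reads, windows, limma-trend, the replicate block and leaving out each p300 library. Named sites were fixed by rule: the 6 highest lower scores, the 4 highest input densities, the 4 highest and 4 lowest H3K4me1 ratios and the 4 largest rises and falls of p300 among members with at least 40 p300 reads, and 3 sites on each side of the PU.1 rule. Motifs and gene annotation were planned and not run, as no mm9 genome was used here. PU.1, H3K4me1 and input have 1 library each, so no p-value was computed for them. The members, classes and lists were chosen with earlier results of these data known.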

Additional observations from a re-analysis of the deposited data

How the results depend on the processing

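A p300 score of at least 100 in both lists left 171 members, and ignoring PU.1 peaks of scores under 100 gave 1021. Sites called over all p300 sites, 430 in the main analysis, were 0 with total reads and 0 with 10 kb background bins as library size (1498 and 1452 at unadjusted p under 0.05), and 13 to 707 when 1 p300 library was left out. Without untreated replicate 1, untreated replicate 2, LPS replicate 1 and LPS replicate 2 there were 707, 348, 13 and 66. The replicate block gave 1294 calls, 11 higher and 3 lower among members. It called 5 named sites that were not called in the main analysis. As higher it called chr19:11887234, chr1:155147189 and chr11:83459960 (log2 2.02, 1.44 and 1.598). As lower it called chr2:164266317 and chr16:11001617 (-1.74 and -1.31), and it did not call chr4:45054384. The block was not the only alternative to call some of these sites, since limma-trend also called chr19:11887234. Replicate numbers come from file names only. Deviations of same-numbered replicates correlated at r = 0.21 over 19727 sites and at r = 0.48 over the 538 members, and with 2 pairs this does not pair the samples. The members' median log2 fold change was 0.22 with total reads and 0.19 with background bins (0.20 and 0.16 over all sites), 0.0486 with all reads kept, 0.0538 with a 50 bp shift, 0.0291 by limma-trend, 0.0078 with the replicate block, 0.0104 to 0.131 with 1 library left out, and 0.0707 without the chromosome 11 run, an alternative chosen after seeing the data.

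With 5 reads added, the median log2 ratio to input was 1.68 for H3K4me1, 1.01 and 1.00 for PU.1 (untreated, LPS) and 0.32, 1.71, 0.73 and 1.59 for p300 (untreated 1 and 2, LPS 1 and 2). PU.1 was 1.24 and 1.37 in 500 bp on each side of the centre. With all reads kept, p300 was 2.56, 1.299 and 2.49 in untreated 2, LPS 1 and LPS 2. The share of members with an H3K4me1 peak was 55.2% for peaks scoring at least 100 and 73.2% within 1 kb. Among members with at least 40 p300 reads, also chosen later, the untreated replicate ratio far from H3K4me1 was 0.389. The fold change at chr4:45054384 turned to -1.52 without untreated replicate 2 and reached 4.11 without LPS replicate 2. The cause was not tested. Of 341 values for named sites under the alternatives, 293 kept their direction and call or, where uncalled, moved by under 1 SE, 28 uncalled values moved by more, 8 gained a call, 11 lost it and 1 reversed. At a median of 7 and 10 reads per member in p300 replicate 1, the counting error of a single site is large there.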

Other observations

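Outside chromosomes 1 to 19 and X, the p300 lists merged into 38 sites, of which 4 met the same rule. Their reads stood below input in all 7 precipitated libraries, with 420 input reads and 52 to 133 p300 reads, or 0.127 to 0.298 times input per library size. PU.1 was at 0.0965 and 0.0570 times input and H3K4me1 at 0.0213. On the chromosomes used, the share of constitutive sites that were members ran from 9.31% on chromosome 16 (19 of 204) to 16.5% on chromosome 4 (44 of 267).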
